A study of Mus musculus with 11 samples.

Results

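The 7 wild-type arrays of fetal mouse adrenocortical sorts were split by the level of Th, which encodes tyrosine hydroxylase, the rate-limiting enzyme of catecholamine synthesis. The Th probe with the highest mean over the 11 arrays of the series was read as log2 signal minus the 75th percentile of its array. Of the 7 wild-type arrays, 3 (replicates 5, 6 and 7) had a level of 2.5 or more and are called Th-high here, and 4 (replicates 1 to 4) lay below it and are called Th-low. The level was 3.42, 3.78 and 3.40 on the Th-high arrays, and 0.56, 1.94, −1.03 and −1.11 on the Th-low arrays in replicate order. The lowest Th-high array was replicate 7 at 3.40, and the highest Th-low array was replicate 2 at 1.94. The sets were read from the data and were not assigned by the submitters.

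Each array held RNA of 1 mouse, so the replicates are different animals. The wild-type embryos were Star+/+ and the 4 knockout embryos Star-/-, all at E17.5 or 18.5, with the day of each mouse not stated. Cells were dissociated with trypsin and sorted by flow cytometry for enhanced green fluorescent protein (eGFP). The sources used here do not name the promoter that drives eGFP, so which cell types the gate could hold is not known from the labels. Of the Th-low mice 2 were labelled male and 2 female, and of the Th-high mice 1 was labelled male and 2 female. Knockout arrays enter only as values beside the wild-type sets.

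The adrenal gland holds 2 tissues of separate origin. Cells of the cortex make steroid hormones from cholesterol, beginning in the mitochondrion with Cyp11a1 after Star has moved cholesterol inwards. Chromaffin cells of the medulla descend from the neural crest, partly by way of Schwann cell precursors that reach the gland along nerves, and store catecholamines with granins and neuropeptides in dense-core vesicles. Late in gestation both tissues lie side by side within a capsule of mesenchymal cells, supplied by dense sinusoids.

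Promoters of the marker that formed the sets and of 3 granins, the acidic proteins of dense-core vesicles, are shown first, because Th, Chga and Chgb stood far apart between the sets while Scg2 did not. The 100 bases before each transcription start are from RefSeq (GRCm38.p6), 5′ to 3′ on the strand of the gene, with a cAMP response element, TGACGTCA, or in Chga the variant TGACGTAA, in capitals. Th lies at chr7:142899996-142900095 (minus strand), Chga at chr12:102554841-102554940 (plus), Chgb at chr2:132781542-132781641 (plus) and Scg2 at chr1:79440027-79440126 (minus).
Th: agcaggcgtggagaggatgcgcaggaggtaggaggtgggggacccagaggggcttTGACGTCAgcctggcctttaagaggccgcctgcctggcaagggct
Chga: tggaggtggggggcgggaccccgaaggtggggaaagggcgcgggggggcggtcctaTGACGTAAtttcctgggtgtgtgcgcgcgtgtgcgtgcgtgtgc
Chgb: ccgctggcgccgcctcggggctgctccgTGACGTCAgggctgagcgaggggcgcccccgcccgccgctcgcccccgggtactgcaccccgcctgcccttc
Scg2: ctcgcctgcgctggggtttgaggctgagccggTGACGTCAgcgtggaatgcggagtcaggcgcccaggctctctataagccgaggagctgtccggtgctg

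The element began at −45 in Th, −44 in Chga, −72 in Chgb and −68 in Scg2, counted from the transcription start. TGACGTCA, which reads the same on both strands, was in 588 of the 32851 RefSeq promoters (1.79%) of 300 bases each, 250 before and 50 after the start. It was in 5 of 19 promoters of the granin and peptide list (Scg2, Chgb, Pcsk1, Cartpt and Sst), in 2 of 9 of the catecholamine list (Th and Slc18a2), in 0 of 12 of the sympathoadrenal transcription factor list and in 0 of 12 of the steroidogenesis list. TGACGTAA or its reverse complement TTACGTCA was in 0.499% of all promoters, and Chga was the 1 listed match.

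The 7 wild-type arrays lay on 3 slides. Replicates 1 and 2 were on slide 1, replicate 3 on slide 2 and replicates 4 to 7 on slide 3, so all Th-high arrays shared a slide and replicate 4 is the 1 Th-low array on it. Slide 3 was read by a later version of the extraction software than the other slides. Some differences, among them the medians of the main lists, are therefore also given within slide 3, as the Th-high mean minus replicate 4. That value reuses the Th-high arrays, and replicate 4 is also in the Th-low mean, so it is not an independent check. Replicate 3 stood apart, with the lowest 75th percentile of the signal (115 against 166 to 463 on the others) and an estimated array weight of 0.191 against 0.701 to 3.68. Replicate 4 was labelled female, yet its Y-linked Ddx3y level of 2.70 lay within the 2.26 to 2.88 of the arrays labelled male. The other 3 arrays labelled female lay between −6.74 and −5.27. By Ddx3y, the Th-low replicates 1, 2 and 4 were at the male level, but of the Th-high arrays only replicate 7 was. Within slide 3, replicate 4 thus differed from replicates 5 and 6 in this level. Between 19072 and 25456 of 41174 probes per wild-type array were well above background, with 19072 to 22291 on the Th-high and 19424 to 25456 on the Th-low arrays. Precision is limited by the number of arrays.

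Replicate 4 resembled the other Th-low arrays of other slides more than its slide-mates. Its correlation with replicates 1, 2 and 3 over the 19447 genes and unnamed probes tested was 0.921, 0.935 and 0.872, and with replicates 5, 6 and 7 on its own slide 0.840, 0.849 and 0.853. The Th-high arrays correlated with each other at 0.872 to 0.904. These are correlations across genes of arrays that share a platform, given as a description.

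Of 19447 genes and unnamed probes tested, 4585 (23.6%) did not overlap between the sets and differed at least 2-fold in mean, 1986 higher (10.2%) and 2599 lower (13.4%) on the Th-high arrays. Within slide 3, 1762 of the higher and 2195 of the lower genes also differed at least 2-fold from replicate 4. Split by slide instead, with replicate 4 joined to the Th-high arrays, 466 genes were higher (2.4%) and 1334 lower (6.86%). By limma, at a Benjamini-Hochberg adjusted p under 0.05, 823 (4.23%) rose and 1062 (5.46%) fell, and these 1885 (9.69%) were all among the 4585. With slide as a fixed term, which leaves replicate 4 as the sole comparator, limma called 102 higher and 135 lower. Leaving out 1 array gave between 150 (without replicate 5) and 1520 (without replicate 3) higher calls and between 243 (without replicate 2) and 1979 (without replicate 3) lower calls. A test over sets that were read from the data measures how a gene goes with the Th level. An exact permutation test of 3 against 4 arrays cannot give a two-sided p below 0.0571.

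The balance of higher and lower depended on scaling. The median difference of all tested genes was −0.19 on the scale used here, which subtracts the 75th percentile, and 0.74 with the array median, −0.03 with quantile normalization and 0.26 with normexp background. With the array median, 5143 genes did not overlap and were higher and 705 lower (87.9% higher against 43.3%), with quantile normalization 2177 and 1907 (53.3% higher), and with normexp background 1443 and 1252 (53.5% higher). The direction of each gene list is therefore given with its behaviour under these scalings.

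**Figure D1:**
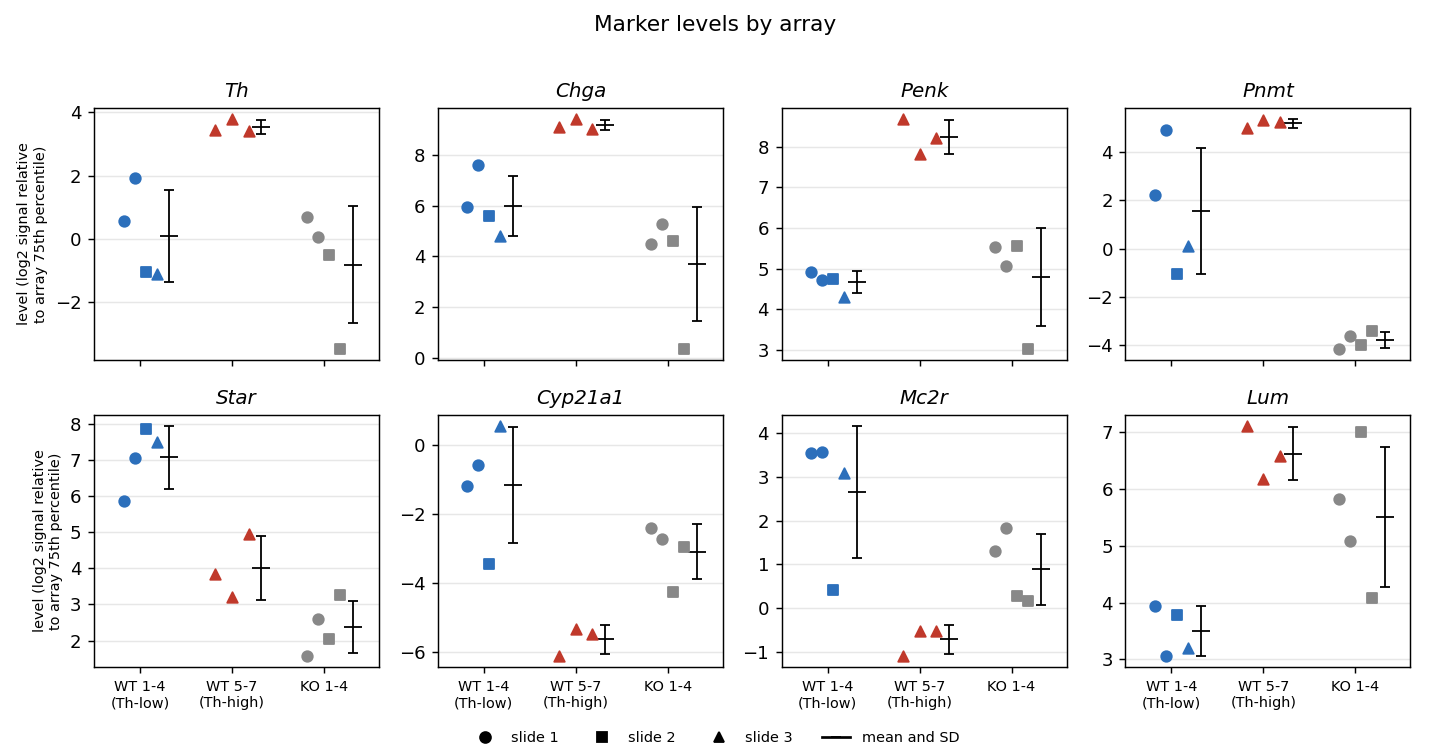
Levels of 8 markers on every array (y axis, log2 signal relative to the 75th percentile of the array), with Th-low wild-type arrays in blue, Th-high in red and knockout in grey, symbols for the slide, and bars for the mean and SD. Chga and Penk are higher, and Star, Cyp21a1 and Mc2r lower, on all 3 Th-high than on all 4 Th-low arrays, while Pnmt of replicate 2 (4.90) lies just under the lowest Th-high array (5.00).

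Granins and peptides, the cargo of chromaffin vesicles, were higher on the Th-high arrays in most listed members. In these lists the values are a description, since the arrays were split on a gene of the same cells, and no test is given. Chga, the chromogranin that drives vesicle formation, had levels of 5.94, 7.63, 5.61 and 4.80 on the Th-low and 9.12, 9.43 and 9.04 on the Th-high arrays. The means were 5.99 ± 1.19 (SD, n = 4) and 9.20 ± 0.21 (SD, n = 3), a 9.21-fold difference in level, and within slide 3 the log2 difference was 4.40. Every Th-high array was above every Th-low array, although Chga was also well above background on all 4 Th-low arrays. Because these are bulk sorts, fewer chromaffin cells and less RNA per cell cannot be told apart.

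Penk, the precursor of the enkephalins, had levels of 4.93, 4.71, 4.74 and 4.30 on the Th-low and 8.68, 7.83 and 8.21 on the Th-high arrays. The Th-low arrays lay close together for Penk, with an SD of 0.26 (n = 4) against 1.45 for Th itself, and replicate 2 did not lead them. A second measured Penk probe differed by 1.41 and overlapped. Chgb was at 10.08 ± 0.31 (SD, n = 3) against 7.14 ± 0.82 (SD, n = 4). Scg3 differed by 3.57 on the log2 scale, Scg5, a chaperone of the convertase Pcsk2, by 3.66, and Cartpt, a peptide precursor, by 3.42.

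Of the 20 granin, peptide and processing genes listed, 19 were on the array and 15 passed the filter, and 10 of these were higher and 1 lower without overlap. The median difference of the 19 was 1.87, and 3.01 within slide 3, beside −0.24 and 0.29 for all genes on the array. A gene well above background in one set alone could pass the filter through that set, here and in each list below, so the counts of genes apart are not support. Npy, a co-transmitter of catecholamines, was at 0.83 to 4.07 on the Th-low and 4.45 to 4.84 on the Th-high arrays. The convertases Pcsk1 and Pcsk2, which cut prohormones, differed by 2.59 and 1.59, and Pcsk1n, an inhibitor of Pcsk1, by 2.06. With normexp background these differences were 1.63, 1.11 and 1.49.

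The group did not move as one. Cpe, the carboxypeptidase that trims peptides after the convertases, was lower on the Th-high arrays, at 3.36, 3.28 and 2.76 against 4.55, 4.30, 4.34 and 4.83. Pam, which amidates peptides, overlapped, with a difference of −1.88. Scg2, another granin, overlapped. Its Th-low levels were −0.24, 1.50, −2.88 and −2.49, against 0.80, 1.34 and 0.51. Replicate 2 exceeded all Th-high arrays for this granin, and replicates 3 and 4 were far below them. Tac1, Adcyap1 and Vip, precursors of other neuropeptides, stood well above background on 0 of 7 wild-type arrays.

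Catecholamine synthesis genes were split by replicate 2. Pnmt, which makes adrenaline from noradrenaline, had levels of 2.22, 4.90, −1.04 and 0.09 on the Th-low and 5.00, 5.34 and 5.24 on the Th-high arrays. The Th-low spread for Pnmt was 2.62 (SD, n = 4), against 0.18 (SD, n = 3). Dbh, which makes noradrenaline from dopamine, had levels of −1.89, −0.04, −2.76 and −2.63 against −0.18, 0.02 and −0.50, and overlapped. Ddc, which makes dopamine, did not overlap, at 0.24 to 2.11 against 2.41 to 3.07. Its difference was 1.77, and 1.14 with normexp background. Replicate 2 was thus beside the Th-high arrays for Pnmt and Dbh and well below them for Chga and Penk.

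The vesicular transporters Slc18a1 and Slc18a2, which load monoamines into vesicles, differed by 2.08 and 2.40, and Cyb561, which feeds electrons to Dbh, by 2.41. By the chosen probe, all 3 were higher on every Th-high array. A second measured Slc18a2 probe differed by 0.47 and overlapped. Slc6a2, the noradrenaline transporter of the cell membrane, had levels of −3.20, 0.06, −2.75 and −4.18 against −0.77, 2.05 and 1.01 and overlapped through replicate 2. Genes of the tetrahydrobiopterin cofactor that Th needs did not follow Th. Gch1, the first enzyme of that pathway, overlapped with a difference of 0.75, Pts, the next, was lower by a difference of −1.66, and Qdpr, which recycles the cofactor, overlapped at −0.99. Maoa, which breaks catecholamines down, overlapped at 0.75. In all, 12 members other than Th were tested, 5 higher and 1 lower, with a median difference of 1.69 and 2.37 within slide 3.

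Transcription factors of the sympathoadrenal lineage divided. Isl1, a homeodomain factor of sympathetic and chromaffin cells, had levels of −1.78, −0.08, −1.66 and −2.21 on the Th-low and 1.73, 2.18 and 1.36 on the Th-high arrays. Eya1, Gata2 and Hand1 were also higher, by 2.80, 2.44 and 1.86. Phox2a, a factor that defines the lineage, overlapped, with a difference of 1.01, as did Gata3 at 1.17. Phox2a reached −0.42 on replicate 2 against −1.26 to −0.30 on the Th-high arrays.

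Sox4 and Tlx2 were lower on the Th-high arrays, by −1.46 and −1.14, and by −0.020 and −0.11 with normexp background. The chosen Tfap2b probe differed by −2.21 but was not well above background on any Th-high array, turned to 0.22 with normexp background, and a second measured probe of the gene went the other way. Hand2 stood well above background on 0 of 7. Of 16 listed factors 13 were tested, 4 higher and 3 lower, and the median difference of the 16 was 0.84, and 1.05 within slide 3. Of the 15 tested granin and peptide genes 10 thus went with Th, while Dbh, Scg2, Slc6a2 and Phox2a did not separate the sets and Cpe was lower. The Schwann precursor and the capsule and stroma lists, described below, had median differences of 2.11 and 2.20, against 1.87 for granins and peptides. The sets are therefore called by their Th level and not by a tissue.

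Genes of neurites and of regulated exocytosis had the higher mean on the Th-high arrays for 15 of 17 and 13 of 16 tested members. Stmn4, a neuronal regulator of microtubules, had levels of 0.96, 2.53, 0.40 and 1.48 on the Th-low and 6.04, 7.56 and 5.55 on the Th-high arrays, the largest difference of its list at 5.04 (32.9-fold). Stmn2, Uchl1, a ubiquitin hydrolase of neurons and neuroendocrine cells, and Rtn1, a reticulon, differed by 3.24, 3.10 and 2.98. Of 17 tested cytoskeletal genes 11 were higher and 0 lower, with a median of 1.70 over the 18 on the array and 2.33 within slide 3. Among the Th-low arrays, replicate 2 had the highest level for 14 of the 17.

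Of 16 tested exocytosis genes 7 were higher and 2 lower, with a median of 1.66 over 18 and 2.23 within slide 3. Among the Th-low arrays, replicates 2 and 3 each had the highest level for 6 of the 16. Sv2a, a vesicle glycoprotein, Cadps, which primes dense-core vesicles, and Syt1, a calcium sensor, differed by 3.03, 2.74 and 2.38. With normexp background these differences were 1.39, 1.25 and 1.67. Other measured probes of Syt1 differed by 2.41 and −0.04. Rims2, an active zone scaffold, went the other way, at −1.87, −1.66, −2.78 and −1.53 on the Th-low against −5.10, −4.13 and −5.89 on the Th-high arrays, 1 of them well above background. Its difference was −3.08, and −0.20 with normexp background. Snap25 stood well above background on 0 of the 7 arrays. Receptors also differed. Gfra3, the artemin co-receptor, was at 1.03 to 2.80 against 4.96 to 5.19. Ngfr, the low-affinity neurotrophin receptor of neural crest cells and glia, was at 0.87 to 1.97 against 3.95 to 5.06. Adcyap1r1, the receptor for the preganglionic peptide PACAP, differed by 2.74, and by 1.36 with normexp background. For both Ngfr and Adcyap1r1 a second measured probe did not show the rise, with differences of −1.14 and −0.20. Dscam differed by −3.71, with no Th-high array well above background, and by 0.09 with normexp background. Channel and acetylcholine receptor genes were mostly too dim to compare. Of 15 on the array 7 were tested, 1 higher and 1 lower, near the 10.2% and 13.4% of all tested genes.

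**Figure D2:**
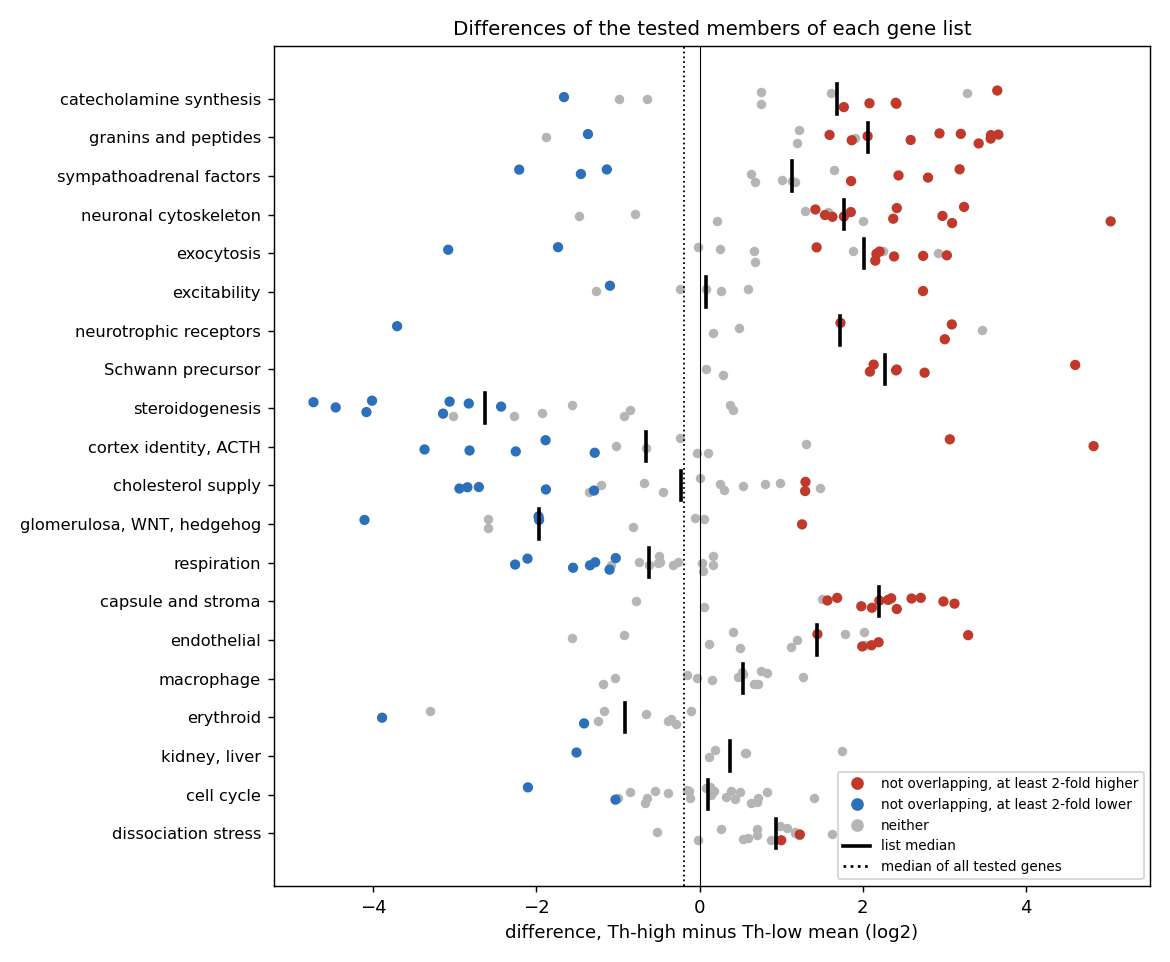
Difference between the Th-high and Th-low means (x axis, log2) of each tested member of 20 gene lists, coloured where the sets did not overlap and differed at least 2-fold, with a bar for the median of the tested members. Granin, cytoskeletal, Schwann precursor and capsule lists lie mostly to the right of the dotted median of all tested genes at −0.19, and steroidogenesis mostly to the left.

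Schwann precursor markers were higher on the Th-high arrays. Erbb3, the neuregulin receptor that glial precursors depend on, had levels of −5.24, −5.08, −4.80 and −6.91 on the Th-low arrays, none of them well above background, and −0.58, −0.78 and −1.34 on the Th-high arrays. This is at least 15.3-fold higher (limma adjusted p = 0.0133), and the fitted difference was 1.81 with normexp background. Erbb3 passed the filter through the Th-high arrays alone, so this p is not support. Mbp, a myelin protein, rose by 2.41, and S100b, a glial calcium-binding protein, by 2.42 (limma adjusted p = 0.0266 and 0.0358). With 1 array left out, Mbp missed the threshold without replicate 1, 2, 4, 5 or 6 (adjusted p up to 0.0813), and S100b without any but replicate 3 (up to 0.108).

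Of 8 tested Schwann markers 6 were higher and 0 lower without overlap, and the median of the 10 on the array was 2.11, and 3.10 within slide 3. The median level of the list lay at 0.97 to 1.34 on the Th-high, −1.72 to 0.16 on the Th-low and 0.83 to 1.33 on the knockout arrays. On the knockout arrays Th ran from −3.47 to 0.70, so this list was at the level of the Th-high arrays there while Th was not.

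Stromal genes and some endothelial genes were also higher on the Th-high arrays. Lum, the matrix proteoglycan lumican, rose from 3.94, 3.06, 3.79 and 3.19 to 7.11, 6.18 and 6.58. The rise was 3.13 ± 0.43 (SE) on the log2 scale (limma adjusted p = 0.0133, and 0.0114 to 0.0452 with each array left out). Lum passed under 15 of all 16 alternatives. Pdgfra, a receptor of mesenchymal cells, rose by 2.71, and Postn, a matrix protein of fibroblasts, by 2.60 (limma adjusted p = 0.0306 and 0.0248). Pdgfra missed the threshold without replicate 2, 5, 6 or 7 (adjusted p up to 0.0908), and Postn without 2, 4, 5, 6 or 7 (up to 0.0732). Cspg4, a pericyte proteoglycan, did not overlap, with a difference of 2.99 and a limma adjusted p of 0.0744, which was 0.0197 without replicate 3.

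Of 15 tested capsule and stroma genes 12 were higher without overlap and 8 rose by limma. The median difference was 2.20, and 2.66 within slide 3 and 2.15 without replicate 3. The median level of the list was 5.89 to 6.23 on the Th-high, 2.82 to 4.32 on the Th-low and 4.10 to 5.82 on the knockout arrays. Tcf21, a factor of capsular progenitors, and Rgs5, a pericyte gene, overlapped. Among the Th-low arrays replicate 1 had the highest level for 12 of the 15, whereas replicate 2 led 14 of 17 cytoskeletal genes. The capsule and cytoskeletal lists thus had different leading arrays within the Th-low set. Other lists shared a leading array with one of them. Replicate 1 also led 14 of 15 endothelial genes, and replicate 2 led 7 of 12 catecholamine genes. The part of these lists in one another's differences was not tested.

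Kdr, the VEGF receptor of endothelium, rose from 3.87, 3.29, 3.70 and 3.26 to 6.61, 7.49 and 6.37. The rise was 3.29 ± 0.42 (SE) (limma adjusted p = 0.0133, and 0.0113 to 0.041 with each array left out). Kdr passed under 15 of all 16 alternatives. Flt1, another VEGF receptor, rose by 2.19 (limma adjusted p = 0.0448), and passed only without replicate 3 (0.0497) of the 7 arrays. Esam and Ptprb, of endothelial junctions, did not overlap, by 2.11 and 1.99, and did not pass limma's threshold. Of 15 tested endothelial genes 5 were higher and 0 lower without overlap. The list's median difference was 1.44, 2.10 within slide 3, and 0.82 without replicate 3, where the list's median level was −0.48 against 1.71 to 3.55 on the other Th-low arrays. Of the 15 tested genes, 13 had the higher mean on the Th-high arrays. The 2 with the lower mean were Pecam1 and Tek, which mark endothelium. They overlapped, with differences of −1.56 and −0.93, and were each well above background on 4 of the 7 wild-type arrays. Of 14 macrophage genes, none was apart between the sets: replicates 1 and 2 had median levels of 2.80 and 2.82, replicates 3 and 4 of 0.40 and −0.38, and the Th-high arrays of 0.71 to 2.44.

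**Figure D3:**
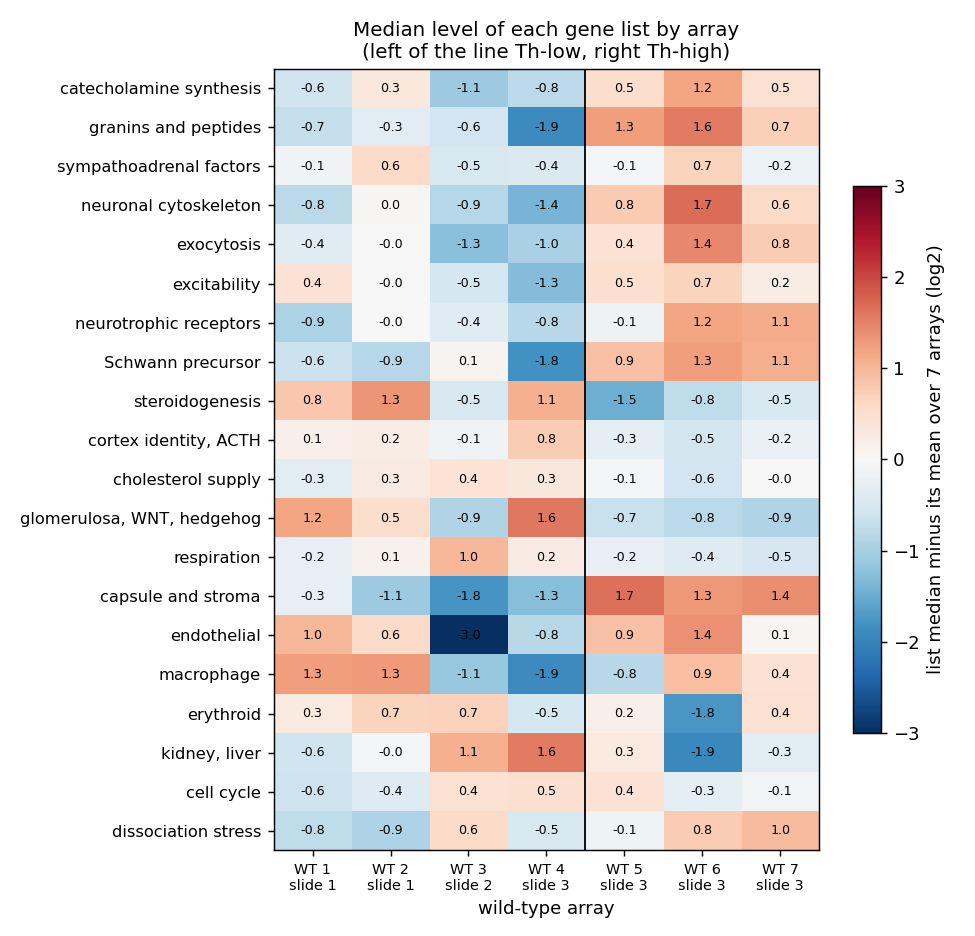
Median level of the members of each gene list on each wild-type array, minus the mean of that median over the 7 arrays (colour and printed value, log2), with Th-low arrays left and Th-high right of the line. Capsule and stroma is highest on all 3 Th-high arrays, neuronal lists are intermediate on replicate 2, and endothelial and macrophage lists vary within the Th-low set.

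Steroid synthesis genes were lower on the Th-high arrays. Star fell from 5.87, 7.04, 7.86 and 7.49 to 3.84, 3.21 and 4.95, by 3.07 ± 0.62 (SE) on the log2 scale, an 8.37-fold lower level, and by 3.49 within slide 3 (limma adjusted p = 0.0275). On the Star-/- arrays the level was 1.58 to 3.27, and 2 of the 3 Th-high arrays lay above that range. Its adjusted p ran from 0.0309 to 0.0793 with an array left out and missed the threshold without replicate 2, 4, 5 or 6 (0.0726, 0.0642, 0.0793 and 0.0765). Fdxr, the reductase that passes electrons towards Cyp11a1, fell from 5.76, 6.25, 5.92 and 6.31 to 2.5, 2.97 and 3.27. The fall was 3.15 ± 0.38 (SE) (limma adjusted p = 0.0129). Fdxr passed with every single array left out (0.0103 to 0.0401), and under 15 of all 16 alternatives. Fdx1, its partner ferredoxin, fell by 2.43 (limma adjusted p = 0.0396), and missed the threshold without replicate 2, 4, 5, 6 or 7 (up to 0.11).

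Cyp11a1, the side-chain cleavage enzyme itself, overlapped. Its levels were 5.45, 6.18, 2.11 and 5.38 on the Th-low and 1.62, 2.42 and 3.47 on the Th-high arrays. Replicate 3 was the low Th-low array, and without it the difference was larger and passed the threshold (limma adjusted p = 0.0164). Tspo, a protein of the outer mitochondrial membrane, was at 1.78 on replicate 3 and 4.09 to 4.97 on the other Th-low arrays. Its Th-high levels were 1.83 to 2.62, and Tspo also passed without replicate 3 (limma adjusted p = 0.0161). Replicate 3 was thus the low Th-low array for Cyp11a1 and Tspo. For other genes it was not. It had the highest Th-low level for 6 of the 16 tested steroidogenesis genes, among them Star, Fdx1 and Hsd3b1.

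Hsd3b1, which makes progesterone from pregnenolone, fell by 2.83, and its paralogue Hsd3b6 by 4.02 (limma adjusted p = 0.0177 for both). Both missed the threshold without replicate 2, 5 or 6, with adjusted p up to 0.0593 and 0.0515. With normexp background Hsd3b1 differed by −3.33 and Hsd3b6 by −1.78. Near-identical members of the Hsd3b family can share signal on an array. Cyp21a1, the 21-hydroxylase of corticosteroid synthesis, had levels of −1.18, −0.58, −3.45 and 0.54 on the Th-low arrays, 3 of them well above background, and −6.11, −5.32 and −5.46 on the Th-high arrays, none well above background. It was at least 14.9-fold lower (limma adjusted p = 0.025), but passed the filter through the Th-low arrays alone, so this p is not support. It missed the threshold without replicate 1, 2, 5, 6 or 7 (adjusted p up to 0.0758), and its difference was −0.76 with normexp background (0.411). Akr1c18, the 20-alpha-hydroxysteroid dehydrogenase that inactivates progesterone, fell by 4.73 (limma adjusted p = 0.0412). Its limma adjusted p was 0.0517 to 0.116 with each array left out, and its difference was −2.68 with normexp background.

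Akr1b7, an aldose reductase of the cortex and among the brightest genes of the sort, was at 8.25, 9.48, 10.76 and 9.83 against 7.36, 6.75 and 8.82 and overlapped. Srd5a1 also overlapped, with a difference of 0.41. Cyp17a1 and Por were below, and Stard3 above, on every Th-high array, but by −0.93, −0.85 and 0.37, under the 2-fold minimum. Cyp11b2, aldosterone synthase, was at 1.06 on replicate 4 and between −6.94 and −1.41 on the other wild-type arrays. Of 17 steroidogenic genes on the array 16 were tested, 8 lower and 0 higher without overlap, and 7 fell by limma. The median difference of the 17 was −2.43, −2.84 within slide 3 and −2.52 without replicate 3, and the median of the tested members stayed below 0 under all 16 alternatives, from −2.92 to −1.70.

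The ACTH receptor and factors of cortical identity moved in both directions. Mc2r, the ACTH receptor, fell from 3.55, 3.56, 0.42 and 3.09 to −1.09, −0.53 and −0.52, by 3.37 (limma adjusted p = 0.0387). With an array left out its adjusted p was 0.00876 without replicate 3 and 0.0835 to 0.107 without each of the others. Nr5a1, the factor that establishes steroidogenic cells, was at −0.61, −0.98, −2.32 and −0.68 against −2.49, −2.45 and −2.36, apart by a narrow margin from replicate 3 and by −0.30 in mean with normexp background, with a limma adjusted p of 0.139 (0.0142 without replicate 3). Nr0b1, which restrains Nr5a1, was at 1.86, 2.04, 5.03 and 3.35 against 0.72, −0.02 and 0.05 (limma adjusted p = 0.0602, and 0.033 without replicate 3).

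Wt1, a factor of the adrenogonadal primordium, and Sult1e1, oestrogen sulfotransferase, rose by 3.07 and 4.83 (limma adjusted p = 0.0421 and 0.0175). Wt1 missed the threshold without any array but replicate 4 (up to 0.118), and Sult1e1 without replicate 2 or 6 (up to 0.0508). Within slide 3 Wt1 differed by 1.48, and replicate 4 was its highest Th-low array at −0.41. Of 13 tested members 5 were lower and 2 higher, and the median of the 14 on the array was −0.84, −0.43 within slide 3. The median of the tested members turned to 0.28 with array-median scaling.

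**Figure D4:**
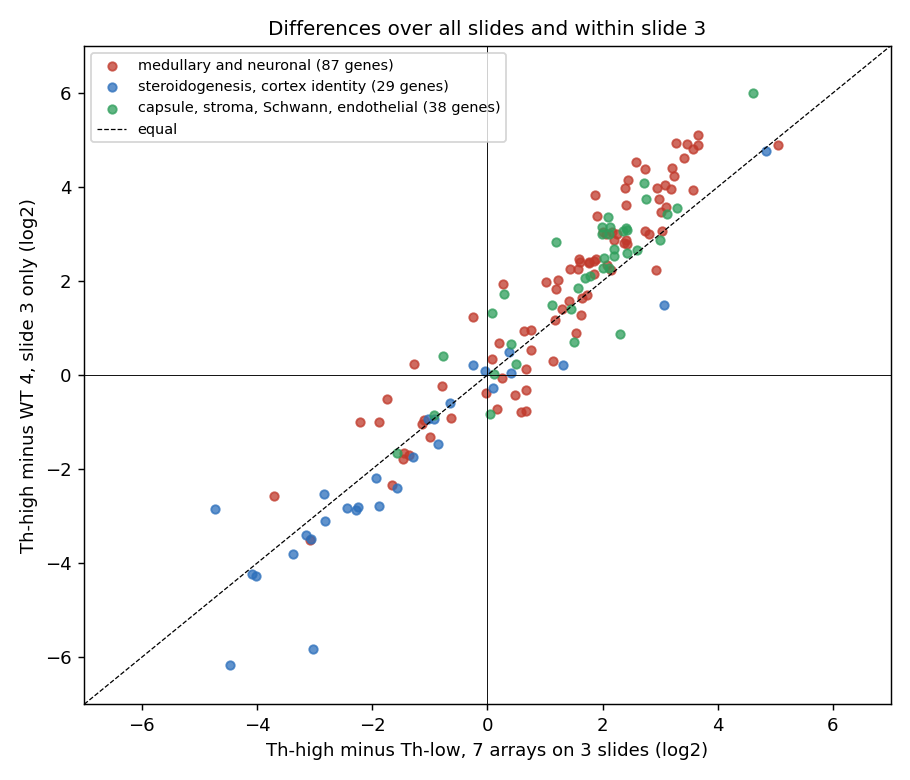
Difference of each tested list gene over all 7 arrays (x axis, log2) against the difference within slide 3, the Th-high mean minus replicate 4 (y axis, log2), with the dashed line marking equal values. The medullary and neuronal (red) and the stromal, Schwann and endothelial genes (green) lie mostly on or above the line on the right, and steroidogenic and cortical genes (blue) mostly on or below it on the left.

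For a gene that does not overlap, the sign against replicate 4 is fixed by the call, so within slide 3 only the size can be read. Of the 41 higher and 9 lower medullary and neuronal genes, 47 differed at least 2-fold from replicate 4, beside 1762 of 1986 higher and 2195 of 2599 lower genes among all tested. Since the Th-high arrays shared slide 3 with 1 comparator, slide and set can be separated only as far as that array goes.

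Cholesterol supply genes were mixed. Dhcr7, which makes cholesterol in the last step, fell from 6.55, 7.55, 9.39 and 7.92 to 4.93, 4.27 and 5.82, by 2.85 (limma adjusted p = 0.0449, and up to 0.121 without replicate 2, 4, 5, 6 or 7). Lipe, hormone-sensitive lipase, and Scarb1, the receptor for high-density lipoprotein, did not overlap, by −2.71 and −1.88, and missed the threshold. With normexp background Lipe differed by −0.85. Srebf2, which switches sterol genes on, was higher by 1.29 but hardly apart. Its lowest Th-high level was −1.67 (replicate 7), against −1.68 on replicate 4 of the same slide, while replicate 3 was at −4.29. Of 18 tested genes 5 were lower and 2 higher without overlap, the latter near the 10.2% of all tested genes, with a median of −0.22 that turned to 0.71 with array-median scaling.

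Shh, which subcapsular cortical cells secrete, fell from −0.66, −1.30, −1.13 and −0.18 to −5.26, −2.65 and −6.87, with 1 of 3 Th-high arrays well above background (limma adjusted p = 0.0341, up to 0.0949 without replicate 1, 2, 4, 5 or 7, and up to 0.346 over all alternatives). With normexp background its difference was −0.84. On the knockout arrays it was at −7.10 to −5.89, with 0 of 4 well above background and Th-high replicate 7 within that range. Dab2, an adaptor of the glomerulosa, fell by 1.97 (limma adjusted p = 0.0448, and up to 0.13 without any array but replicate 3). Agtr1b differed by −1.97 with no Th-high array well above background, and by 0.76 with normexp background. Nr2f2, a factor of mesenchyme and of the outer cortex, did not overlap and was higher by 1.26, and by 0.81 with normexp background. Of 9 tested genes of the glomerulosa, WNT and hedgehog list 3 were lower and 1 higher. Beside these stand 13.4% lower and 10.2% higher of all tested genes, and the higher count is near that share.

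Respiratory chain genes lay slightly below the median of all genes. Sdhd, of complex II, fell by 2.11 (limma adjusted p = 0.0299), and missed the threshold without replicate 2, 4, 5, 6 or 7 (up to 0.094). Of 19 tested genes 7 were lower and 0 higher, and the median was −0.63, and 0.30 with array-median scaling. Replicate 3 had the highest Th-low level for 14 of the 19. Of 24 cell cycle genes 2 were lower, Ccne2 and Rrm2, and 0 higher, which is under the share among all genes, and replicate 3 led 16 of the 24. Ccne2, a G1 cyclin, turned from −2.10 to 0.21 with normexp background.

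Markers of blood, handling and neighbouring organs were also read. Of 10 tested erythroid genes 2 were lower and 0 higher, beside 13.4% and 10.2% of all tested genes. Slc4a1, the anion exchanger of red cells, was at 3.65, 3.06, 1.97 and 2.75 against 1.87, 0.73 and 1.72 (limma adjusted p = 0.124, and 0.044 to 0.313 with each array left out, the lowest without replicate 3). Of 16 immediate early and heat shock genes, which dissociation can induce, 2 were higher without overlap, near the 10.2% of all tested genes. These were Ier2 and Egr1, by 1.23 and 1.00, and by 0.64 and 0.57 with normexp background. By limma 0 of the 16 passed the threshold. The median difference of the list was 0.93, and 0.59 within slide 3. The part of these genes in the other differences was not tested. Of 6 tested kidney and liver genes 1 was lower, near the 13.4% of all tested genes.

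The 15 highest and 15 lowest of the genes that did not overlap were also named by rule. They were chosen for their difference, so the p-values beside them are a description. The 15 highest differed by 4.63 to 6.00 on the log2 scale and were well above background on all 3 Th-high arrays. Stmn4 and Sult1e1, described above, were among them. They also included Vit and Matn4, proteins of the extracellular matrix, Mfap5 and Tnxb, of microfibrils and the collagen matrix, and the growth factor Fgf5. Vit had levels of −1.25, −2.26, −5.09 and −5.08 on the Th-low and 2.04, 3.11 and 2.59 on the Th-high arrays. Matn4 was at −2.16, −2.31, −5.32 and −2.58 against 3.05, 2.04 and 2.80. On the knockout arrays Vit was at −4.22 to −1.85 and Matn4 at −2.68 to −1.65, all under the Th-high range. The limma adjusted p was 0.0175 for Vit, 0.0136 for Matn4, 0.0178 for Mfap5, 0.0282 for Tnxb and 0.0207 for Fgf5. With 1 array left out Matn4 stayed under the threshold (up to 0.0452), while Vit and Mfap5 missed it without replicate 5, 6 or 7 (up to 0.0518 and 0.0547), Fgf5 without 4, 5, 6 or 7 (up to 0.0623) and Tnxb without 2, 4, 5, 6 or 7 (up to 0.0841).

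Htr3b, a subunit of the serotonin-gated channel, was at −3.90, −4.67, −4.93 and −5.13 against 1.60, 0.44 and −0.48. Sgsm1, a modulator of small G proteins, was at −0.41, 0.98, 0.67 and −0.56 against 4.92, 6.12 and 5.76, and passed limma's threshold under all 16 alternatives (adjusted p at most 0.0496). Every Th-high array was far above every Th-low array for both. Galnt15, which starts O-glycosylation, differed by 5.25 (limma adjusted p = 0.0177, and up to 0.0558 without replicate 2, 5 or 7). Cldn22, a claudin, was at least 20.6-fold higher on the scale used here (limma adjusted p = 0.018). It passed the filter through the Th-high arrays alone, so this p is not support. Its log2 difference of 4.81 became 2.30 with normexp background. The differences of Vit, Matn4, Fgf5, Tnxb and Htr3b also shrank with that background, to 3.67, 3.67, 2.43, 2.89 and 2.51.

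The 15 lowest differed by −6.08 to −4.75. All 15 were well above background on all 4 Th-low arrays, and 10 of the 15 on no Th-high array. Sln, sarcolipin, an inhibitor of the calcium pump, was at −0.85, −1.01, −1.77 and 1.81 against −6.20, −6.44 and −6.96, and was at least 27.1-fold lower (limma adjusted p = 0.0133). Arhgap10, a GTPase activating protein, was at least 31.8-fold lower, and Adi1, of the methionine salvage pathway, at least 25.6-fold lower (limma adjusted p = 0.0164 and 0.009), and Arhgap10 was at 0.0507 without replicate 5. All 3 passed the filter through the Th-low arrays alone, so these p-values are not support. With normexp background the fitted differences of Sln, Arhgap10 and Adi1 were −1.39, −1.31 and −0.83 (limma adjusted p = 0.198, 0.277 and 0.363). On the knockout arrays Arhgap10 was at −1.55 to 0.99 and Adi1 at −1.35 to −0.70, within the range of the Th-low arrays or close to it.

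Dim probes were more common among lower genes. Of 2599 genes lower without overlap, 587 were not well above background on any Th-high array, and of 1986 higher genes 45 were not on any Th-low array. Where a gene had another measured probe, all others went the same way for 395 of 445 lower genes (88.8%) and for 244 of 453 higher genes (53.9%), beside 60.4% of 3863 genes tested. Agreement between probes was thus less common among higher genes than among all genes tested. With probes well above background on all 7 arrays, 1585 of 12719 were higher and 1419 lower.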

How the data were processed

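RNA of 11 mice was amplified linearly from 1 ng, labelled with Cy3 and hybridised to single-colour Agilent arrays, per the labels' protocols. The deposited scanner files hold spot intensity with background subtracted by Feature Extraction, per the file headers; the submitters' processing notes name version 10.5.1.1. A deposited table of the series gives the authors' log2 values, with no statement of their scaling. Values scaled as here and centred on the median of each probe came within 0.01 of it for at least 99.8% of probes, and it served as an alternative. Other deposited columns are flags, which mark spots as controls, outliers, saturated or well above background.

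Of 45018 spots, 43379 were not controls, 77 to 164 per array were outliers and not used, and 0 were saturated. Spots of a probe were averaged on the log2 scale and the array's 75th percentile was subtracted. Through RefSeq accessions (GRCm38.p6), 25377 of 41174 probes had a symbol, for 17427 genes. The probe of a gene with the highest mean level over 11 arrays stood for it. Tested were the 19447 of 33224 genes and unnamed probes well above background on 3 or more of the 7 wild-type arrays. A gene was called apart if the sets did not overlap and the means differed at least 2-fold. The test between sets was that of limma 3.58.1, run in R 4.3.3 (lmFit, eBayes, two-sided, Benjamini-Hochberg, threshold 0.05), with the p not given for medullary and neuronal genes. The fit was tested on simulated data. Results for some list members are not reported here. "At least" marks a fold against the lowest signal among probes well above background, where a set had none.

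The sets, gene lists and members were chosen with earlier results of these data known. Named were Th, Chga, Star, Cyp21a1, members of the catecholamine, granin, transcription factor and steroidogenesis lists, up to 4 of each other list with the largest difference, and the 15 highest and lowest genes. Exceptions chosen after their values were seen are Nr5a1, Srebf2, Pecam1, Tek, Tcf21, Rgs5, Snap25, Tac1, Adcyap1, Vip and Afp. Alternatives changed the slide term, sex, scaling, background (normexp on median spot signals, offset 50), filter, probe choice, array weights, fold minimum and each array left out. Random blocks used statmod 1.5.0, and figures matplotlib 3.10.9 in Python 3.11.15.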

Additional observations from a re-analysis of the deposited data

Results flagged for a closer look

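A sample lay far from the rest of its labelled group in 7 of the 229 gene levels and array measures examined over the 7 wild-type or the 4 knockout arrays, and chance flags about 1 in 20 groups. None of the 7 was a wild-type array. Knockout replicate 4 was the lowest of the 4 knockout arrays for 5 chromaffin genes, at 0.34 for Chga (next lowest 4.50), −3.83 for Scg5 (−0.43), −5.99 for Pcsk1 (−4.45), −2.96 for Gata3 (−0.69) and 1.86 for Gfra3 (3.69). The other flags were Tspo, highest at 4.49 on knockout replicate 1 (next 3.96) and Matn4, lowest at −2.68 on knockout replicate 3 (−1.76). No comparison between the wild-type sets uses these arrays.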

How the results depend on the processing

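No paired analysis was possible because the Th-high and Th-low arrays share no replicate number. Against 1986 higher and 2599 lower genes without overlap, the array median gave 5143 and 705, a 4-fold minimum 949 and 1245, and normexp background 1252 lower, as did probes well above background on all 7 arrays with 1419 lower of 12719 tested. Leaving out 1 array gave 2081 to 2607 higher and 2769 to 3333 lower. Against limma's 823 and 1062 calls (5487 genes at an unadjusted p under 0.05), slide as a fixed block gave 102 and 135, the array median 2978 and 322, no filter 416 and 522 of 33223 tested, and array weights 2072 and 2867. Quantile normalization and normexp background gave 616 and 555 lower calls. Leaving out 1 array gave 150 to 1520 higher and 243 to 1979 lower calls. The sex term used the labels, with replicate 4 as female despite its Ddx3y level. The other alternatives, among them slide as a random block, sex as labelled, the mean of probes and the series table, moved no count by over 1.5 times. The cause was not tested beyond the fewer samples or genes of those settings. Normexp background turned Tfap2b to 0.22, Dscam to 0.093, Agtr1b to 0.76 and Ccne2 to 0.21, all of them dim. Of the genes apart that were followed under each alternative, it took 17 of 36 lower and 3 of 54 higher ones under 2-fold. The tested-member medians of the excitability, cortex identity, cholesterol, respiration, macrophage, erythroid, kidney and liver, and cell cycle lists changed sign under at least 1 alternative, and those of the other 12 lists under none. Signal over background limits what can be read of the 587 lower genes with no Th-high array well above it.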

Other observations

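Transcripts of the fetal liver were present in the sorts and did not follow the Th sets. Afp, alpha-fetoprotein, was at 3.60, 7.30, 6.68 and 5.65 on the Th-low and 9.85, −0.24 and 9.48 on the Th-high arrays, and at 2.79 to 8.25 on the knockout arrays. Replicate 6 was thus the lowest of the wild-type arrays and its fellow Th-high arrays the highest. Afp was well above background on all 7 wild-type arrays.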
